A study of Mus musculus with 9 samples.

Results

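Chemokine and cytokine genes were followed in mouse pancreatic cancer cells that had been stably transfected with beta-catenin or ICAT. The genes were chosen by name as 7 chemokines (Cxcl1, Cxcl2, Cxcl5, Cxcl10, Cxcl12, Ccl2 and Ccl7), 2 cytokines of the IL-6 family (Il6 and Lif) and the IL-1 family cytokine Il33. Every probe set of the array that the platform annotation gives to 1 of these 10 genes and to no other gene was used, which made 15 probe sets of the 45037 in the table. Cxcl1 and Cxcl12 had 3 probe sets each, Lif had 2, and the other genes had 1.

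The cells were line 170#3, of mixed C57BL6, FVB and 129Sv background, grown as a monolayer in DMEM with 10 percent FBS. The 3 groups were cells stably transfected to express beta-catenin, cells stably transfected to express ICAT, and cells labelled as the control transfection, with 3 arrays each that the labels call biological replicates. All groups shared the line, medium and growth format. The labels do not say which promoter drives a transgene, what the control carries, or whether a group is 1 clone, a pool or several transfections, so a p-value covers the spread between the arrays and no more. The values are log2 expression after RMA, a method that removes background signal, forces the arrays onto a common distribution and merges a set's probes into 1 value. A difference of 1 on this scale is a factor of 2.

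Beta-catenin is a transcriptional co-activator of the Wnt pathway that acts with TCF/LEF DNA-binding proteins, and ICAT, the product of Ctnnbip1, binds beta-catenin and blocks its contact with them. Chemokines are small secreted proteins that draw leukocytes along a gradient through G-protein-coupled receptors. Those with an ELR motif (Cxcl1, Cxcl2, Cxcl5) act mainly on neutrophils, Ccl2 and Ccl7 on monocytes, Cxcl10 on activated T cells, and Cxcl12 on cells that carry Cxcr4 or the scavenging receptor Ackr3. IL-6 family cytokines signal through the shared receptor chain gp130 to JAK kinases and STAT3. In pancreatic tumours such factors are known from both the cancer cells and the fibroblasts of the stroma.

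Several of these genes are textbook targets of NF-kB, and Cxcl12 is the member whose values differed most between groups, so the start-site windows of 5 members are shown. RefSeq promoter sequence (assembly GRCm38.p6) was given for 7 of the 10 members, with 2 windows for Il33. Windows of Cxcl5, Ccl2 and Ccl7 were not used here. The sequences below run 5′ to 3′ on the gene's strand over the 250 bases before the annotated start. Capitals mark matches, on either strand, to a kappa-B motif (GGANTTTCC), an ISRE core (GAAANNGAA), an AP-1 motif (TGANTCA), a GAS motif (TTCNNNGAA), a C/EBP motif (TTGCNNAA) or a TCF motif (CTTTGAT).
Cxcl1 (chr5:90890995-90891244, plus strand): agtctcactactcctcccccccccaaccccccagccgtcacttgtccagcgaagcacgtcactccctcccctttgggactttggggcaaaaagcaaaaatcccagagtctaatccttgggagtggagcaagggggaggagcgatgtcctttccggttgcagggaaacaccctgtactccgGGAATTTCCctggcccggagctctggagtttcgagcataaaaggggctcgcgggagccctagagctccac
Cxcl2 (chr5:90903649-90903898, plus strand): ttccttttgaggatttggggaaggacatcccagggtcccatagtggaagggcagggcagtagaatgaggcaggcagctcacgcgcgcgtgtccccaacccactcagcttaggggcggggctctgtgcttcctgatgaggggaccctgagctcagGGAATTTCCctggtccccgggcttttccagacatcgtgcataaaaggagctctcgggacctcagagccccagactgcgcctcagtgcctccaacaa
Cxcl10 (chr5:92348890-92349139, minus strand): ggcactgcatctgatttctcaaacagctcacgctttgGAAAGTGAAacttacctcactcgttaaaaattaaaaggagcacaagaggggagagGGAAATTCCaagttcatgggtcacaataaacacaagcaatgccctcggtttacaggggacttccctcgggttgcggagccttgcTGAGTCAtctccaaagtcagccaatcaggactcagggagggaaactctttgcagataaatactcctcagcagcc
Il6 (chr5:30012864-30013113, plus strand): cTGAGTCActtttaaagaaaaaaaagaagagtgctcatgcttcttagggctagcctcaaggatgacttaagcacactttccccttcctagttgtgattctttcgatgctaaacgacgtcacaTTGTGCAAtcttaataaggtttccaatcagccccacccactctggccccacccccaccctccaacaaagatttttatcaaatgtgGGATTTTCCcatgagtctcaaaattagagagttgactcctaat
Cxcl12 (chr6:117168285-117168534, plus strand): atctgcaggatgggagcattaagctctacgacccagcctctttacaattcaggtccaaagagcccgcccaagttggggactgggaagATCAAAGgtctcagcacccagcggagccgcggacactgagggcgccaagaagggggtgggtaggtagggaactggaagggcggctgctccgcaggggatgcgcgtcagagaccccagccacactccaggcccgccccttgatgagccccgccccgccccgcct

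A kappa-B match lay in the windows of Cxcl1, Cxcl2, Cxcl10 and Il6, 4 of the 7 members with a window, while 1.25% of all 32851 windows, each of 300 bases, held one. It started 70 bases before the start of Cxcl1, 96 before Cxcl2, 158 before Cxcl10 and 43 before Il6. The ISRE core was found only for Cxcl10 (8.56% of all windows), and AP-1 for Cxcl10, Il6 and Lif (7.81%). The C/EBP motif was found for Il6 and 1 of the Il33 windows (10.8%). The TCF match was in the window of Cxcl12, 163 bases before its start, against 3.73% of all windows, and no member's window matched the GAS motif (8.3%). No matches overlapped. A match is a run of letters and not a shown binding site, and no binding was measured here.

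Array medians ran from 6.21 to 6.29 on the log2 scale, and arrays of a group correlated at 0.994 or more over all probe sets. Neither transfected gene checked the labels. The brightest Ctnnb1 probe set averaged 12.88 ± 0.0146 in beta-catenin cells and 12.68 ± 0.0136 in control cells on the log2 scale (SD, n = 3; adjusted p = 0.0672), and the brightest Ctnnbip1 probe set averaged 8.79 ± 0.151 in ICAT cells and 8.64 ± 0.0266 in control cells (adjusted p = 0.269). The same Ctnnb1 set averaged 12.88 ± 0.107 in ICAT cells (adjusted p = 0.0702). The same Ctnnbip1 set averaged 8.78 ± 0.0545 in beta-catenin cells (adjusted p = 0.285). Another Ctnnb1 probe set was called higher than control in ICAT cells (log2 difference 0.245, adjusted p = 0.0162). It was not called in beta-catenin cells (0.179, adjusted p = 0.0744). The remaining Ctnnb1 set was called in neither, with 0.263 in beta-catenin and 0.168 in ICAT cells. Whether these probe sets detect the transgenes is not given in the sources used here. Of the markers of pancreatic epithelium, Epcam, Krt8, Krt18 and Sox9 averaged above log2 5 in every group, whereas Cdh1 lay under 4 in every group, and Krt7, at 4.91 in beta-catenin cells and 4.99 in ICAT cells, was not called. Of 10 immune markers, 2 (Ptprc and Itgam) lay under 5 in every group, and the others, Csf1r, Cd14 and Cd3e among them, above it. Of 5 endothelial markers Cdh5 and Tek lay under 5 in every group, whereas Kdr and Pecam1 lay above it. RNA from a whole culture cannot tell fewer cells of a type from less RNA per cell.

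One array stood apart in these genes. On ICAT replicate 1, 8 of the 15 probe sets read more than 1 log2 unit above both other ICAT arrays, which was true of 85 of all 45037 probe sets (0.189%). The median SD between arrays of a group was 0.792 over the 15 probe sets in ICAT cells, against 0.12 in beta-catenin cells and 0.0572 in control cells. Over all probe sets the median SDs were 0.115, 0.0857 and 0.0714 in the same order. Because 1 model with a shared spread was fitted to all 9 arrays, this array widened the error of every comparison of the genes it touched, that of beta-catenin against control included. The ICAT differences of the 15 probe sets from control are therefore given with and without it.

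Relative to control cells, 6 of the 15 probe sets rose and 2 fell in beta-catenin cells, where 11.9% of all probe sets were called higher and 10.2% lower at an adjusted p under 0.05. In ICAT cells 9 rose and none fell, where 11.1% of all were called higher and 12.0% lower. Between the transfected groups 2 were higher and 7 lower in beta-catenin cells than in ICAT cells, against 14.4% and 11.6% of all. The median log2 difference of the 15 was 0.44 in beta-catenin and 1.42 in ICAT cells relative to control, and −0.67 for beta-catenin against ICAT, and over all probe sets these medians were −0.03, −0.01 and −0.01. The comparisons with control share the control arrays. With 3 arrays a group, no exact permutation test can reach a p below 0.1, and none was run for single genes.

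Without ICAT replicate 1 the ICAT count was 10 higher and 2 lower, where 10.8% of all probe sets were called higher and 10.2% lower. The median difference was then 0.96. Between the transfected groups it was 3 higher and 8 lower, against 13.2% and 11.2% of all. When only the 6 arrays of beta-catenin and control cells were fitted, 12 of the 15 were called for beta-catenin against control, 8 higher and 4 lower, against 13.8% and 12.5% of all. The 4 that this added were 2 probe sets of Cxcl1, lower, and those of Cxcl2 and Cxcl5, higher.

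**Figure D1:**
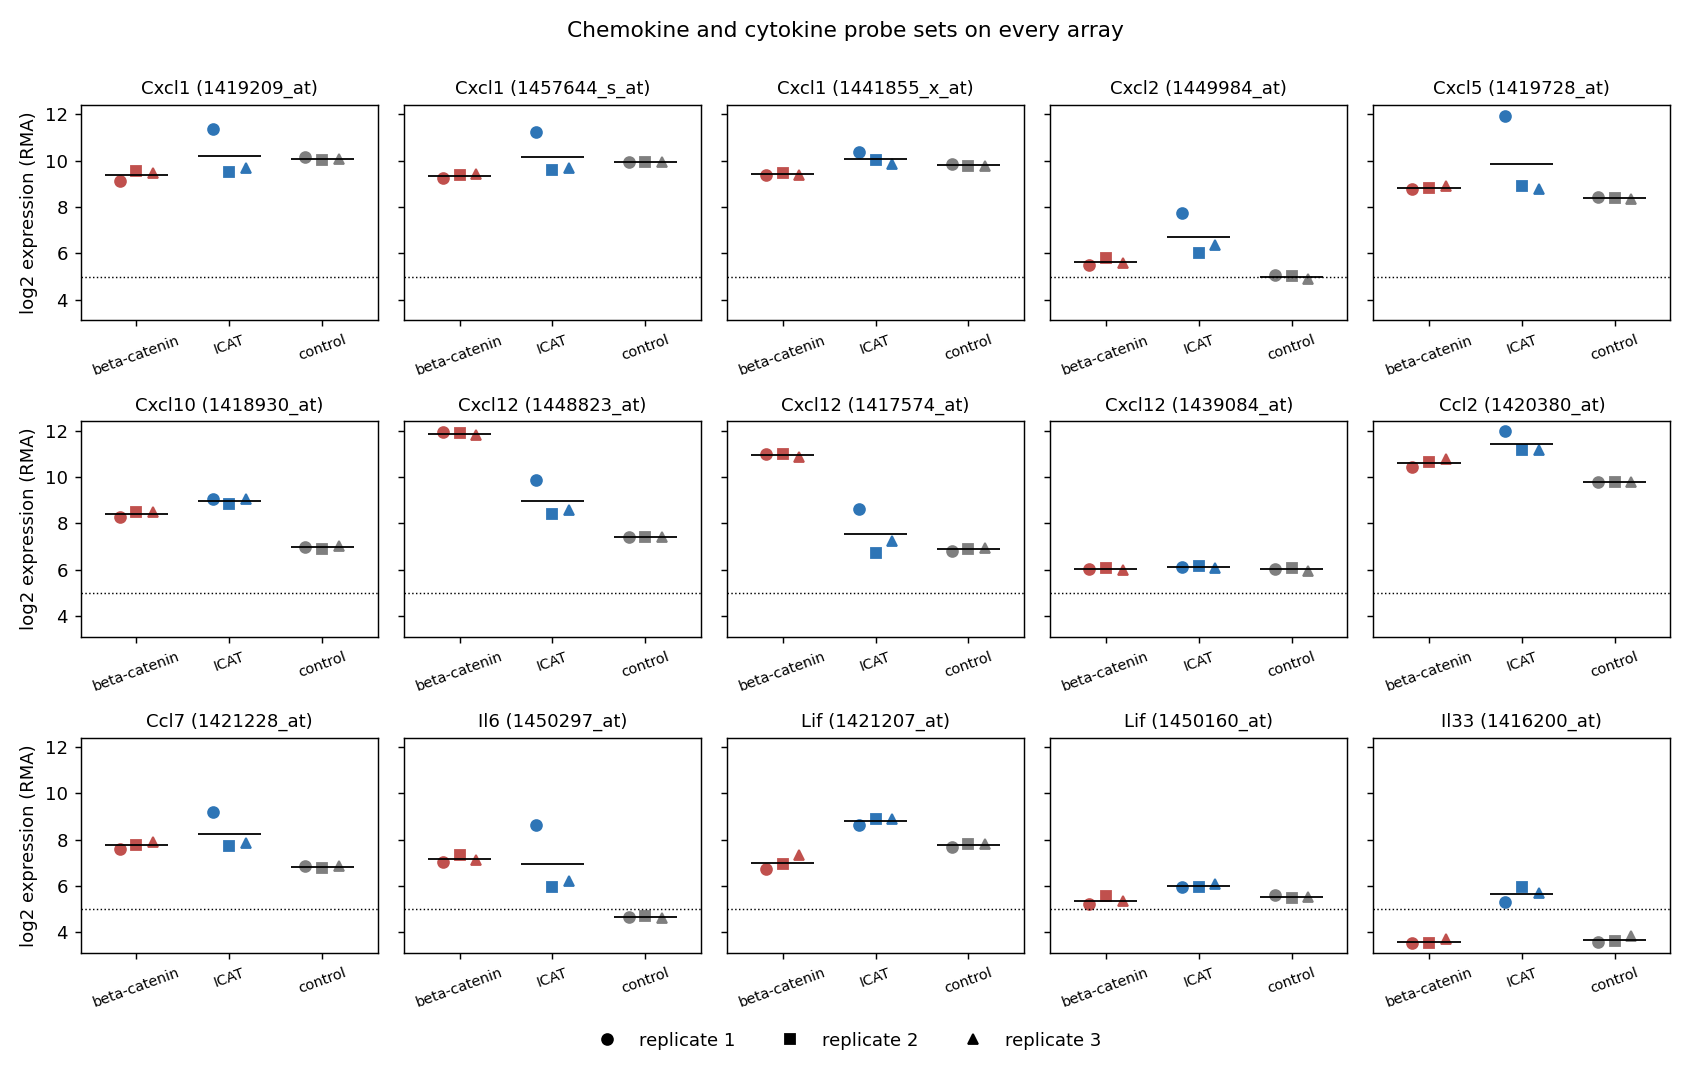
Log2 expression (RMA) of the 15 probe sets on each of the 9 arrays, 1 panel per probe set, with beta-catenin, ICAT and control cells from left to right. Each point is 1 array, its shape gives the replicate, bars are group means, and the dotted line is log2 5, below which folds are given as bounds. In ICAT cells replicate 1 (circle) reads above the other arrays for Cxcl1, Cxcl2, Cxcl5, Cxcl12, Ccl2, Ccl7 and Il6, with the exception of 1 Cxcl12 set (1439084_at), and not for Lif or Il33.

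Cxcl1, a neutrophil attractant, read below control in beta-catenin cells by all 3 of its probe sets, of which 1 was called. By the probe set 1419209_at it read 9.14, 9.54 and 9.47 in beta-catenin cells and 11.38, 9.53 and 9.67 in ICAT cells, against 10.16, 10.04 and 10.07 in control cells, on the log2 scale. All beta-catenin arrays lay below all control arrays, whereas in ICAT cells 1 array lay above and 2 lay below them. The difference from control was −0.70 ± 0.354 in beta-catenin cells (SE; adjusted p = 0.2) and 0.10 ± 0.354 in ICAT cells (adjusted p = 0.895), and neither was called.

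A second Cxcl1 probe set, 1457644_s_at, read 9.24, 9.40 and 9.42 in beta-catenin cells and 11.24, 9.61 and 9.68 in ICAT cells, against 9.93 on each of the 3 control arrays. Its arrays lay on the same sides of the control arrays, though here every beta-catenin array also lay below every ICAT array. The differences from control were −0.58 ± 0.314 in beta-catenin and 0.25 ± 0.314 in ICAT cells (SE; adjusted p = 0.242 and 0.677). When ICAT arrays were kept out of the fit both of these sets were called lower in beta-catenin cells, at adjusted p of 0.001 for 1419209_at and 0.000218 for 1457644_s_at. Without ICAT replicate 1 the ICAT difference changed sign in both, to −0.49 (adjusted p = 0.00911) and −0.29 (adjusted p = 0.024).

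The third Cxcl1 probe set, 1441855_x_at, was called lower in beta-catenin cells, by 1.31-fold (adjusted p = 0.0236). It read 9.40, 9.46 and 9.38 there and 10.38, 10.03 and 9.85 in ICAT cells, against 9.85, 9.76 and 9.79 in control cells. This call did not survive leaving out any 1 control array, beta-catenin replicate 1 or beta-catenin replicate 3 (adjusted p from 0.0514 to 0.082). In ICAT cells the difference of 0.28 was not called (adjusted p = 0.0894), and it stayed positive, at 0.14, without ICAT replicate 1. The 3 sets thus disagreed on the ICAT cells once that array was left out. By Affymetrix naming, the endings _s_at and _x_at mark sets with probes that other transcripts may share.

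Cxcl2 lies beside Cxcl1 and encodes another ligand of the neutrophil receptor Cxcr2. It read 5.51, 5.79 and 5.57 in beta-catenin cells and 7.74, 6.02 and 6.38 in ICAT cells, against 5.07, 5.01 and 4.88 in control cells. The groups did not overlap, and the control mean lay under log2 5, a limit chosen here because the table has no detection calls. Arrays under that limit were set to it in such a group, so that a fold is a lower bound. Cxcl2 rose at least 3.22-fold in ICAT cells (adjusted p = 0.0014), and at least 2.25-fold without ICAT replicate 1 (adjusted p = 3.67e-05).

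In beta-catenin cells the Cxcl2 difference of 0.64 ± 0.312 from control was not called with all 9 arrays (SE; adjusted p = 0.185), but was called with only the 6 arrays (adjusted p = 0.000707). Set against ICAT cells directly, Cxcl2 was 2.12-fold lower in beta-catenin cells (adjusted p = 0.0212), and 1.49-fold lower without ICAT replicate 1 (adjusted p = 0.00439). This call was lost without beta-catenin replicate 1 (adjusted p = 0.0635), without beta-catenin replicate 3 (0.0626) or with a trended and robust prior (0.112).

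Cxcl5, a further Cxcr2 ligand, had the widest spread of the 15 probe sets. It read 8.76, 8.81 and 8.89 in beta-catenin cells and 11.91, 8.91 and 8.76 in ICAT cells, against 8.43, 8.39 and 8.33 in control cells. All 6 transfected arrays lay above all control arrays, 5 of them between 8.76 and 8.91 and ICAT replicate 1 far above. The SD in ICAT cells was 1.77, and the 2.79-fold difference from control was not called (adjusted p = 0.0993). Without that array the ICAT difference was 1.37-fold and was called (adjusted p = 0.00174). The beta-catenin difference of 1.36-fold was called with the 6 arrays alone (adjusted p = 0.000714), though not with all 9 (adjusted p = 0.676).

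**Figure D2:**
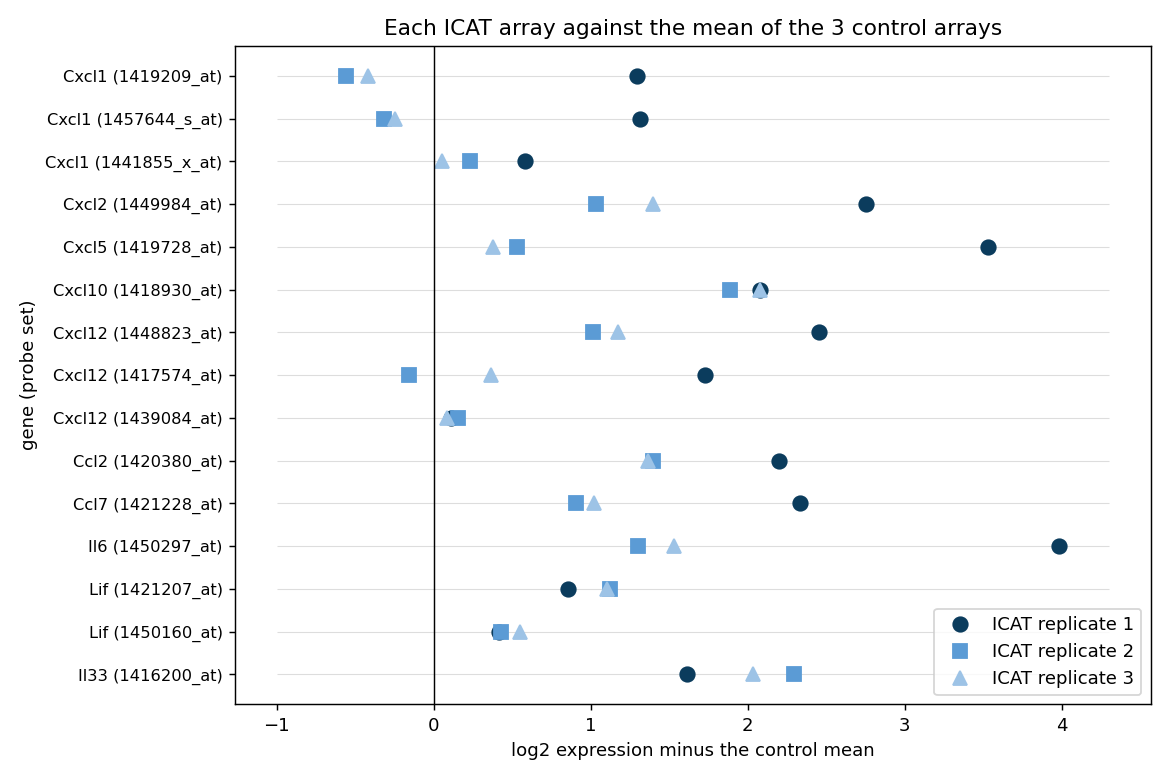
Each ICAT array's log2 expression minus the mean of the 3 control arrays, for the 15 probe sets from Cxcl1 at the top to Il33 at the bottom. Replicate 1 (dark circles) lies to the right of replicates 2 (squares) and 3 (triangles) by more than 1 log2 unit in 8 probe sets. For Lif and Il33 replicate 1 is the lowest of the 3 arrays.

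Cxcl10, a chemokine induced by interferon that attracts T cells through Cxcr3, rose in both transfected lines, and its replicates were close. It read 8.28, 8.48 and 8.50 in beta-catenin cells and 9.04, 8.85 and 9.04 in ICAT cells, against 6.98, 6.87 and 7.04 in control cells. The 3 groups were fully apart, with ICAT cells highest and control cells lowest. The increase over control was 2.74-fold in beta-catenin cells (log2 difference 1.45 ± 0.0851 SE; adjusted p = 1.01e-07) and 4.03-fold in ICAT cells (2.01 ± 0.0851; adjusted p = 2.75e-08). Beta-catenin cells were 1.47-fold below ICAT cells (adjusted p = 0.000353). Without ICAT replicate 1 the ICAT increase was 3.95-fold.

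Cxcl12, the ligand of Cxcr4, showed the largest difference of the 10 genes. By 1448823_at it read 11.93, 11.88 and 11.80 in beta-catenin cells and 9.86, 8.42 and 8.58 in ICAT cells, against 7.40, 7.40 and 7.42 in control cells. The groups did not overlap, and every beta-catenin array lay above every ICAT array. Expression rose 22.1-fold in beta-catenin cells (log2 difference 4.47 ± 0.27 SE; adjusted p = 1.36e-07) and 2.92-fold in ICAT cells (adjusted p = 0.00111). In ICAT cells the increase was 2.13-fold without replicate 1 (adjusted p = 3.53e-06). Beta-catenin cells exceeded ICAT cells 7.56-fold (adjusted p = 7.06e-06), and 10.4-fold without that array.

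The second Cxcl12 probe set, 1417574_at, also rose in beta-catenin cells and was not called in ICAT cells. It read 11.01, 10.99 and 10.86 in beta-catenin cells and 8.60, 6.72 and 7.24 in ICAT cells, against 6.82, 6.89 and 6.92 in control cells. One ICAT array lay below all control arrays and the others above them. The increase was 16.9-fold in beta-catenin cells (adjusted p = 1.59e-06), while the ICAT difference of 0.64 was not called (adjusted p = 0.208) and was 0.10 without ICAT replicate 1 (adjusted p = 0.665). The third set, 1439084_at, read between 5.94 and 6.16 on all 9 arrays and was called in no comparison. Its difference in beta-catenin cells was 0.03, with a 95 percent interval from −0.12 to 0.18, far under those of the other 2 sets, and in ICAT cells it was 0.11 with all arrays and 0.12 without ICAT replicate 1. Which transcripts each set detects was not tested.

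Ccl2, which recruits monocytes through Ccr2, rose in both lines. It read 10.41, 10.65 and 10.78 in beta-catenin cells and 11.98, 11.18 and 11.15 in ICAT cells, against 9.79, 9.77 and 9.80 in control cells. The groups were apart, in the same order as for Cxcl10. Beta-catenin cells had 1.78-fold more than control (log2 difference 0.83 ± 0.179 SE; adjusted p = 0.0044) and ICAT cells 3.14-fold more (1.65 ± 0.179; adjusted p = 3.38e-05), or 2.6-fold without replicate 1. In beta-catenin cells Ccl2 was 1.77-fold lower than in ICAT cells (adjusted p = 0.00422), and 1.46-fold lower without that array (adjusted p = 0.00186).

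Ccl7, the neighbour of Ccl2 and another monocyte attractant, also rose in both. It read 7.59, 7.76 and 7.90 in beta-catenin cells and 9.17, 7.74 and 7.86 in ICAT cells, against 6.87, 6.77 and 6.86 in control cells. The transfected lines overlapped each other and not the control. The increase over control was 1.88-fold under beta-catenin (adjusted p = 0.0318) and 2.68-fold under ICAT (adjusted p = 0.00226), or 1.95-fold without ICAT replicate 1 (adjusted p = 4.02e-05). In beta-catenin cells the call did not survive leaving out any 1 control array or beta-catenin replicate 2 or 3, or a trended and robust prior (adjusted p from 0.0715 to 0.139). Between the transfected lines the difference of −0.51 was not called (adjusted p = 0.22), and it was −0.05 without ICAT replicate 1 (adjusted p = 0.774).

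Il6, the prototype of its family, was under log2 5 on all control arrays and above it on all others. It read 7.03, 7.35 and 7.10 in beta-catenin cells and 8.65, 5.97 and 6.20 in ICAT cells, against 4.68, 4.71 and 4.60 in control cells. The beta-catenin arrays lay together, between ICAT replicate 1 and the other ICAT arrays. Il6 expression was at least 4.48-fold above control under beta-catenin (adjusted p = 0.00274) and at least 3.84-fold above it under ICAT (adjusted p = 0.00508), the ICAT bound being at least 2.12-fold without replicate 1 (adjusted p = 4.9e-06). With a trended and robust prior the ICAT call was lost (adjusted p = 0.0621).

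The order of the transfected lines for Il6 rested on ICAT replicate 1. With all arrays beta-catenin cells were 0.22 log2 units above ICAT cells, which was not called (adjusted p = 0.808; 95 percent interval −0.87 to 1.31). Without replicate 1 they were 2.11-fold higher (adjusted p = 2.39e-05). The sign turned when ICAT replicate 2 (−0.26) or ICAT replicate 3 (−0.15) was left out instead.

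Lif, which signals through Lifr and gp130, was the member that moved in opposite directions. By 1421207_at it read 6.71, 6.95 and 7.34 in beta-catenin cells and 8.62, 8.89 and 8.87 in ICAT cells, against 7.69, 7.82 and 7.80 in control cells. The groups did not overlap, and control cells lay between the transfected lines. Beta-catenin cells had 1.7-fold less Lif than control cells (log2 difference −0.76 ± 0.134 SE; adjusted p = 0.00106), and ICAT cells had 2.04-fold more (1.03 ± 0.134; adjusted p = 0.000136). Compared directly, it was 3.46-fold lower in beta-catenin than in ICAT cells (adjusted p = 1.17e-06). ICAT replicate 1 was the lowest ICAT array here, and the ICAT increase was 2.17-fold without it.

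The other Lif probe set, 1450160_at, read 5.21, 5.56 and 5.34 in beta-catenin cells and 5.95, 5.96 and 6.08 in ICAT cells, against 5.62, 5.47 and 5.52 in control cells. Beta-catenin and control arrays overlapped, and the ICAT arrays lay above both. The ICAT increase was 1.38-fold (adjusted p = 0.0024), or 1.4-fold without ICAT replicate 1, while the beta-catenin difference of −0.16 was not called (adjusted p = 0.251).

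Il33, an alarmin of the IL-1 family that is read by the receptor Il1rl1 with Il1rap, was above log2 5 in ICAT cells alone. It read 3.53, 3.54 and 3.71 in beta-catenin cells and 5.29, 5.97 and 5.71 in ICAT cells, against 3.60, 3.61 and 3.82 in control cells. All ICAT arrays exceeded every other array by more than 1 log2 unit, and beta-catenin and control arrays overlapped below the limit. Il33 rose at least 1.58-fold in ICAT cells relative to control (adjusted p = 1.45e-06) and was at least 1.58-fold lower in beta-catenin than in ICAT cells (adjusted p = 5.26e-07). Both bounds were at least 1.79-fold without ICAT replicate 1. No fold is given for beta-catenin against control, since both means lay under the limit.

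**Figure D3:**
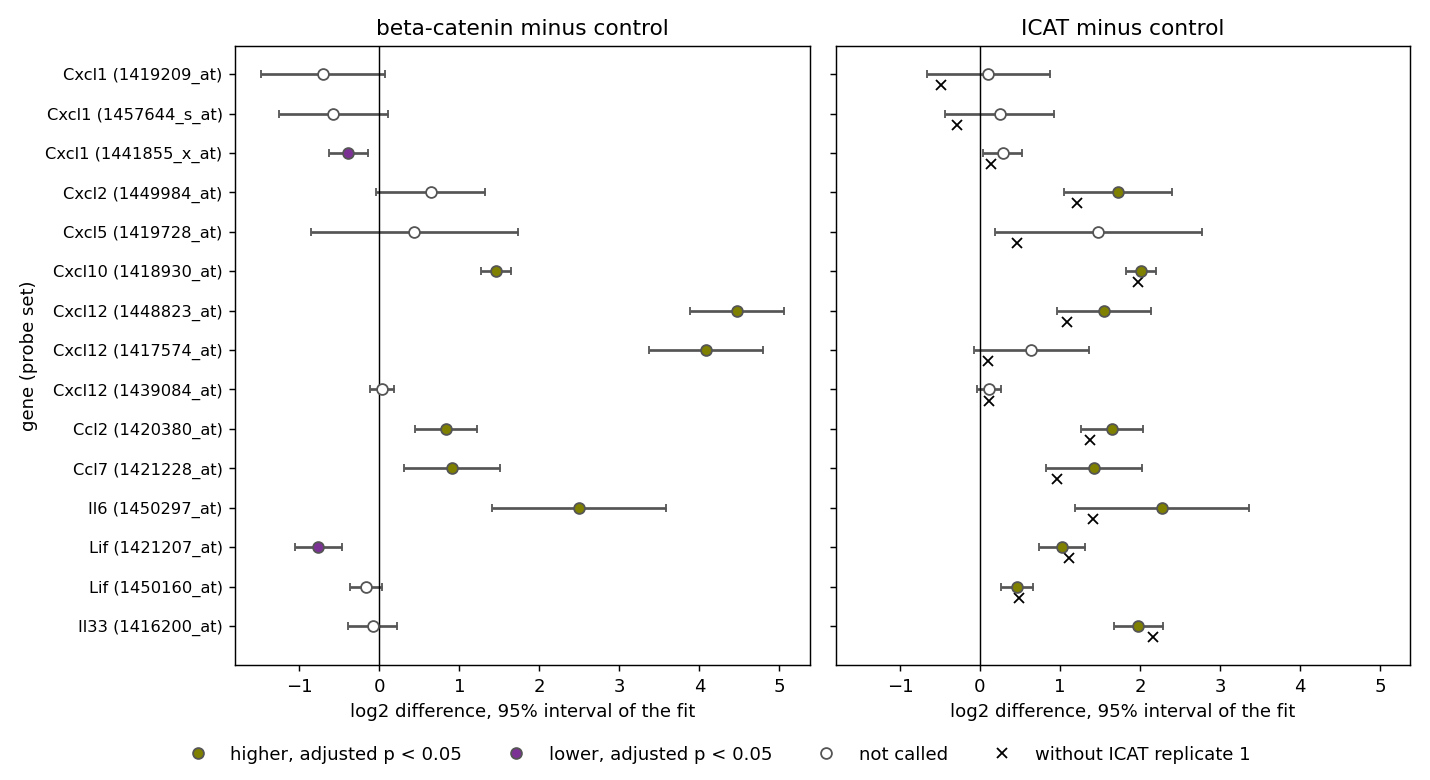
Log2 differences of the 15 probe sets from control cells with 95 percent intervals of the limma fit, for beta-catenin (left) and ICAT (right). Olive points were called higher, purple points lower and open points not called, and crosses give the ICAT difference without ICAT replicate 1. The 2 leading Cxcl12 sets stand apart in beta-catenin cells at 4.47 and 4.08, and the crosses of 2 Cxcl1 sets lie on the other side of 0.

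Over the 9 arrays, genes of like pattern were looked up for the brightest probe set of each member among the 965 genes with an SD of at least 0.5. The Pearson correlations describe these arrays, which share their groups and normalization, and have no test. The closest genes were Thbs3 (0.998), Thbs1 (0.996) and Pxylp1 (0.994) for Cxcl12, and Lcn2 (0.995), Saa3 (0.994) and Csf3 (0.966) for Cxcl5. The Cxcl5 coefficients depend heavily on ICAT replicate 1. Cxcl1, Cxcl2, Cxcl12, Ccl7 and Il6 also read more than 1 log2 unit above both other ICAT arrays there. So did some of the genes named here for Cxcl1, Cxcl2, Ccl2, Ccl7 and Il6, among them Penk, Usp18, Ifit1, Gbp3 and Emb. No coefficient was computed without that array. On that array Lcn2 read 11.36 and Saa3 12.11, whereas on the others they read at most 5.75 and 7.77. Ccl2 was followed most closely by Parp9 (0.996), Ifit1 (0.992) and Rtp4 (0.991), and Cxcl10 by Gstm5 (0.994), Rida (0.991) and Emilin1 (0.988). For Cxcl2 they were Pde4b (0.983), Galk2 (0.979) and Usp18 (0.977), and for Ccl7 Sned1 (0.974), Sfrp2 (0.968) and Gbp3 (0.964). Il6 went with Emb (0.994), Vnn1 (0.983) and Cyp1b1 (0.981), Lif with Rnf144b (0.99), Dnajb9 (0.99) and Adamts9 (0.984), and Il33 with Tgfbr2 (0.993), Zc3h6 (0.991) and Smim14 (0.99). Cxcl1 had looser neighbours, the nearest being Penk (0.895), Cxcl3 (0.877) and Aldh3a1 (0.861).

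Among the members themselves the brightest probe sets of Ccl2, Ccl7 and Cxcl2 correlated at 0.953 to 0.958 over the 9 arrays. Ccl2 and Cxcl10 correlated at 0.926, and Ccl7 and Il6 at 0.925. Both Cxcl2 with Cxcl5 and Lif with Il33 correlated at 0.906. The coefficient was −0.573 for Cxcl12 and Lif, which both rose in ICAT cells but differed in direction in beta-catenin cells, and −0.0407 for Cxcl1 and Cxcl10. None of these coefficients was computed without ICAT replicate 1.

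Related genes were read from 9 lists, each gene by its brightest probe set. Over all 18193 genes, 15.3% were called higher and 11.6% lower in beta-catenin cells, and 14.6% higher and 14.0% lower in ICAT cells. Without ICAT replicate 1 the ICAT shares were 14.4% and 11.8%. Between the transfected lines 17.6% were higher and 14.0% lower in beta-catenin cells than in ICAT cells. Of 57 genes of the 9 lists called in ICAT cells, 55 had the same call without ICAT replicate 1, Ccl25 and Jak2 did not, and the fold that moved most was that of Usp18, by 1.48 times. Another 3, Irak1, Lcn2 and Saa3, were called only without it. The median log2 difference over all genes was −0.03 in beta-catenin and −0.01 in ICAT cells.

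Of 12 other CXC, CX3C and XC chemokine ligands, 1 rose in beta-catenin cells and 3 in ICAT cells, none fell, and the median log2 differences were −0.04 and 0.11. In ICAT cells these were the membrane-bound ligands Cx3cl1 (1.88-fold) and Cxcl16 (1.72-fold) and Cxcl14 (1.7-fold), and Cxcl14 also rose 1.29-fold in beta-catenin cells. Of 16 other CC ligands, 3 rose in beta-catenin cells, and in ICAT cells 4 rose and 1 fell, with medians of 0.02 and 0.05. The T-cell attractant Ccl5 rose 1.59-fold in beta-catenin cells and 2.92-fold in ICAT cells, and Ccl27a 1.9-fold and 2.21-fold in the same order. Ccl20, a ligand of Ccr6, rose 1.31-fold and 1.32-fold, and Ccl9 rose 1.54-fold in ICAT cells. The 1 CC ligand that fell in ICAT cells was Ccl25, named after its values were seen.

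Of 20 chemokine receptors and decoy receptors, the beta-catenin cells had 2 lower and none higher, and the ICAT cells 1 higher and 1 lower (medians −0.10 and −0.03). The scavenging receptor of Cxcl12, Ackr3, read 10.73, 10.83 and 10.77 in beta-catenin cells and 11.79, 11.87 and 11.73 in ICAT cells, against 11.31, 11.19 and 11.27 in control cells. It was thus 1.4-fold lower than control in beta-catenin cells (adjusted p = 0.000252) and 1.45-fold above it in ICAT cells (adjusted p = 0.000136). Ackr3 and Cxcl12 differed in order, since Cxcl12 was highest in beta-catenin cells and Ackr3 lowest. The signalling receptor Cxcr4 lay between 4.03 and 4.25 on all arrays, and Cxcr2 averaged 4.90 in beta-catenin, 4.99 in ICAT and 5.08 in control cells. Ccr1, the second receptor that was called lower in beta-catenin cells, was called lower in ICAT cells too, at least 1.09-fold in each, with both transfected means under log2 5.

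The receptor chains Osmr, Il6st and Lifr rose in both lines, as Il6 did. Of 11 other ligands and receptors of the family, beta-catenin cells had 3 higher and 3 lower than control, and ICAT cells 5 higher and 1 lower, with medians of −0.08 and 0.10. Osmr, the oncostatin M receptor, read 10.56, 10.73 and 10.61 in beta-catenin cells and 10.68, 9.81 and 9.73 in ICAT cells, against 7.76, 7.78 and 7.78 in control cells. The increase was 7.26-fold under beta-catenin (adjusted p = 2.55e-07) and 4.92-fold under ICAT (adjusted p = 3.79e-06), or 3.99-fold without ICAT replicate 1. Il6st, which encodes gp130, rose 1.9-fold with beta-catenin (adjusted p = 2.15e-06) and 1.97-fold with ICAT (adjusted p = 2.98e-06).

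Il6ra and Lifr were lower in beta-catenin than in ICAT cells. Il6ra, the IL-6 receptor chain, rose 2.1-fold in ICAT cells (adjusted p = 5.67e-05) and was 1.33-fold lower in beta-catenin cells (adjusted p = 0.0312). Lifr rose 2.07-fold with ICAT (adjusted p = 4.78e-06) and 1.63-fold with beta-catenin (adjusted p = 6.78e-05). Among the ligands Il11 fell 1.77-fold in beta-catenin cells and was not called in ICAT cells (adjusted p = 0.646), and Clcf1 fell 1.64-fold in beta-catenin cells, against 1.73-fold in ICAT cells, while oncostatin M (Osm) read between 5.85 and 6.20 on all arrays and was not called.

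Genes of the JAK-STAT3 list moved mostly upwards in ICAT cells, where 9 of 17 rose and none fell, against 5 and 2 in beta-catenin cells (medians 0.42 and 0.16). Stat3 rose 2.33-fold under beta-catenin and 2.16-fold under ICAT, and the NF-kB co-factor Bcl3, a known STAT3 target, 2.24-fold and 2.12-fold in the same order. Socs3, the feedback inhibitor of gp130 signalling, rose 2.5-fold in ICAT cells (adjusted p = 0.00316), with 11.06 on ICAT replicate 1 against 10.18 and 9.50 on the others. Without that array its log2 difference was 0.92 (adjusted p = 0.00169) and the list had 10 genes higher. Cebpd, an acute-phase regulator, rose 2.09-fold in ICAT cells and was not called in beta-catenin cells. Junb rose 2.04-fold under beta-catenin and 1.29-fold under ICAT, and Pim1 fell 1.57-fold in beta-catenin cells and was not called in ICAT cells.

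Of 21 NF-kB subunits, inhibitors and targets, beta-catenin cells had 6 higher and 2 lower than control, and ICAT cells 9 higher and 1 lower (medians 0.19 and 0.34). The survival factor Birc3 rose 2.05-fold under beta-catenin and 1.84-fold under ICAT, and the adaptor Traf1 2.02-fold and 2.05-fold in the same order. Csf1, the macrophage growth factor, rose 1.99-fold in beta-catenin cells and less, 1.48-fold, in ICAT cells. The NF-kB subunit Relb rose 1.49-fold under beta-catenin and 1.76-fold under ICAT. The inhibitor Nfkbie rose 1.83-fold in ICAT cells and was not called in beta-catenin cells. In beta-catenin cells Tnfaip2 fell 4.89-fold (adjusted p = 4.37e-10), and it read 0.12 below control in ICAT cells (adjusted p = 0.284). The gene that was called lower in both lines was Ptgs2, named after its values were seen. Its log2 difference was −0.98 in beta-catenin cells (adjusted p = 5.77e-06) and −0.80 in ICAT cells (adjusted p = 5.45e-05).

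Interferon response genes, listed beside Cxcl10, rose in 9 of 16 cases in beta-catenin cells and in 14 of 16 in ICAT cells, with none lower in either line and medians of 0.48 and 0.79. Without ICAT replicate 1 the ICAT count was again 14. The guanylate-binding protein gene Gbp2 rose 6.23-fold in beta-catenin cells and 4.65-fold in ICAT cells. Ifit1, an RNA-binding antiviral gene, rose 2.37-fold and 6.99-fold in the same order, and Usp18, which removes ISG15 from proteins, at least 2.12-fold and at least 7.89-fold. Without ICAT replicate 1 the ICAT increases were 3.3-fold for Gbp2, 5.36-fold for Ifit1 and at least 5.34-fold for Usp18. The RNA sensors rose in both lines, Ddx58 1.89-fold under beta-catenin and 2.13-fold under ICAT, and Ifih1 1.81-fold and 3.85-fold in the same order. Set directly against ICAT cells, 9 of the 16 were lower in beta-catenin cells and none higher, against the 14.0% and 17.6% of all genes given above, and Cxcl10 was lower as well. Ifnb1, the interferon beta gene, averaged 5.31 in beta-catenin, 5.36 in ICAT and 5.34 in control cells.

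The list of the IL-33 receptor and IL-1 family also holds the adaptors and kinases Myd88, Irak1, Irak2 and Traf6. Il1rl1 itself and Irak4 had no probe set of their own and were not read. Of the 13 genes read, beta-catenin cells had 3 higher than control and 3 lower, and ICAT cells had 2 higher and 1 lower (medians −0.06 and −0.02). Il1rap, the co-receptor of Il1rl1, was 2.02-fold lower than control in beta-catenin cells (adjusted p = 6.12e-06) and 1.35-fold above it in ICAT cells (adjusted p = 0.00495), so its direction in each line was that of Lif. Il18 rose 1.89-fold in beta-catenin and 3.2-fold in ICAT cells. Sigirr, a receptor that restrains IL-1 and IL-33 signalling, fell 3.71-fold under beta-catenin and 1.71-fold under ICAT, and Il1r1 rose 1.84-fold in beta-catenin cells and was not called in ICAT cells.

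Of 11 regulators of cytokine mRNA decay, 3 rose and 2 fell in each line (medians −0.10 and 0.04). Zfp36, which shortens the life of cytokine mRNAs with AU-rich elements, rose 1.42-fold in beta-catenin cells, and the related Zfp36l1 1.34-fold in beta-catenin and 1.41-fold in ICAT cells. The decay factor Khsrp fell 1.36-fold in beta-catenin cells. In ICAT cells Hnrnpd fell 1.29-fold and the stabilising factor Elavl1 1.25-fold.

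**Figure D4:**
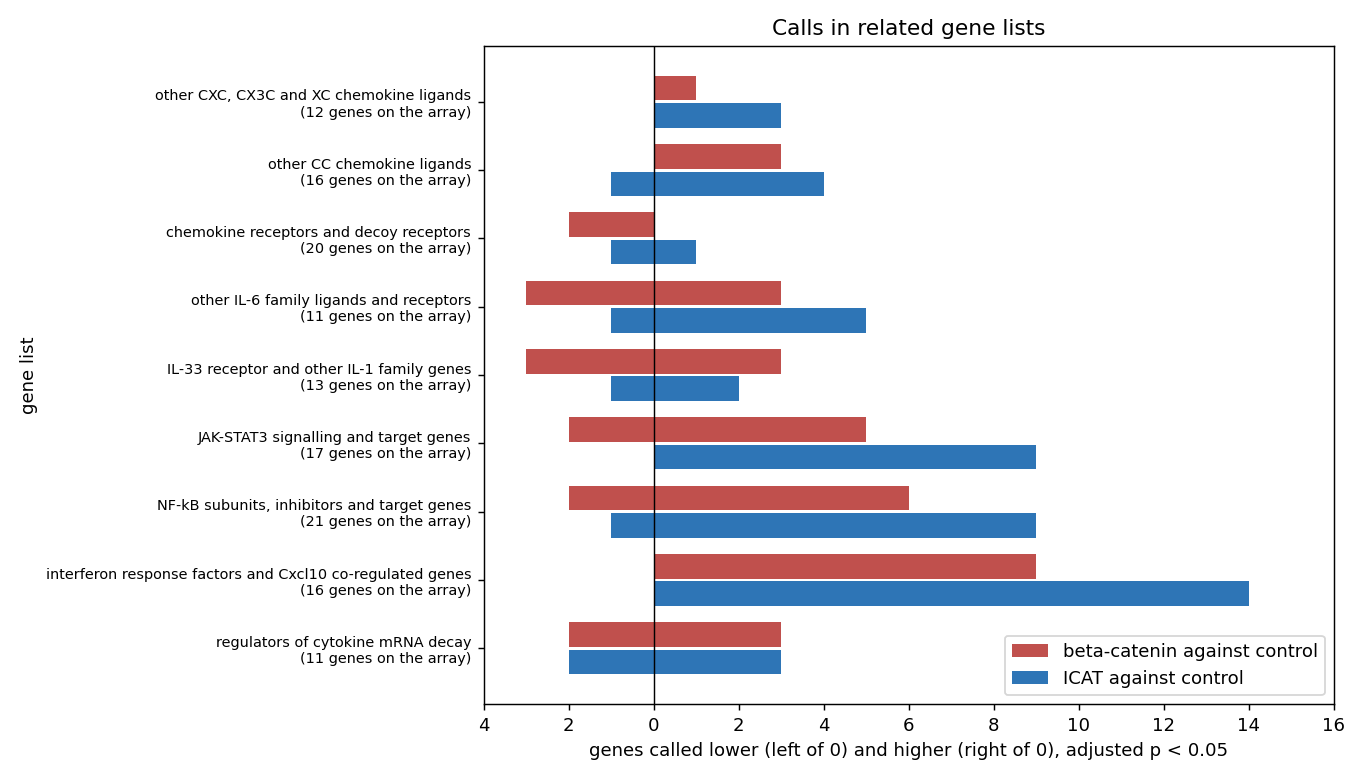
Number of genes of each related list called higher (right of 0) or lower (left of 0) relative to control at an adjusted p under 0.05, in beta-catenin cells (upper bars) and ICAT cells (lower bars). The number of each list's genes on the array stands beside its name. The interferon response list has the most calls upwards, 9 with beta-catenin and 14 with ICAT, and none lower.

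Some fibroblast and epithelial markers rose in ICAT cells, whereas with all arrays no immune or endothelial marker was called there. Summed over 11 fibroblast markers on the linear scale, expression had a log2 of 13.22 to 13.35 in beta-catenin cells and 14.62 to 14.73 in ICAT cells, against 13.67 to 13.69 in control cells. Of these markers, 7 rose and none fell in ICAT cells, and 3 rose and 2 fell in beta-catenin cells, while Lum, Thy1 and Fap lay under 5 in every group. The 2 that fell in beta-catenin cells, Col1a2 (2.63-fold) and Col3a1 (1.36-fold), were the brightest in every group and weigh most in the sum. The 3 that rose there were Pdgfra (4.11-fold), Acta2 (2.48-fold) and Col1a1 (2.2-fold). The epithelial sum was 10.07 to 10.12 in beta-catenin and 10.51 to 10.82 in ICAT cells, against 10.07 to 10.16 in control cells, with 3 of 8 markers higher in ICAT cells, or 4 without ICAT replicate 1, and none called in beta-catenin cells. Of 10 macrophage and other immune markers none was called higher in either line, and Cd68 (1.47-fold) and Cd14 (1.42-fold) fell in beta-catenin cells. The immune sums were 9.70 to 9.79 in beta-catenin and 9.78 to 10.06 in ICAT cells, against 9.90 to 9.97 in control cells. S100a8 read 7.07 on ICAT replicate 1 against 5.22 and 5.62 on the other ICAT arrays. Without replicate 1 it was called lower in ICAT cells (log2 difference −0.95, adjusted p = 0.000337). None of 5 endothelial markers was called higher and 1, Emcn, was called lower in beta-catenin cells, and the sums ran from 8.15 to 8.35 over all arrays. The part of the fibroblast and epithelial markers in the chemokine and cytokine results was not tested.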

How the data were processed

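RNA of 9 cultures was hybridised to Affymetrix arrays after Trizol extraction and 3′ IVT labelling, per the labels' protocols. The deposited values are log2 expression, computed by the authors with RMA in affy, as listed in the submitters' processing notes; their version is not given in the sources used. Differences between dim probe sets come out too small after RMA, and a shift common to all genes is normalized away. The number of arrays limits the precision.

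Of 45037 probe sets, 34945 have 1 gene symbol in the platform annotation, 932 several and 9160 lack one. Current symbols were taken from RefSeq genes by Entrez identifier, except for 204 probe sets. No probe set of several genes named a member. One mean per group was fitted to all probe sets and all 9 arrays without a filter in limma 3.58.1 (R 4.3.3), with 6 residual and 6.13 prior degrees of freedom. Tests were two-sided and moderated, with Benjamini-Hochberg adjustment over all probe sets of a comparison, and called at an adjusted p under 0.05. The fit was tested on simulated data. Where a group's mean lay under log2 5, its arrays under 5 were set to 5 for a fold.

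The members, gene lists, motifs and tests were chosen with earlier results of these data known. Named were all member probe sets, up to 4 called genes per list and comparison by size of change, not all of them described, and the 3 genes most correlated with each member. A list gene was read from its brightest probe set. Alternatives were filters at log2 5 and 7 on 3 arrays, 1 probe set per gene, median-centred arrays, a trended and robust prior, array and group weights, a fit of only the groups compared, a replicate block and each array left out. The replicate numbers were not taken to pair arrays, because deviations of same-numbered arrays correlated from −0.0963 to 0.317 and no label says what a number marks.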

Additional observations from a re-analysis of the deposited data

How the results depend on the processing

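All 3 counts over all probe sets moved by more than 1.5 times with 1 probe set per gene, where only 18193 features were tested: 5274 were called for beta-catenin against control (9950 with all probe sets), 5585 for ICAT against control (10426) and 6126 for beta-catenin against ICAT (11714). Leaving out 1 array at a time gave 7796 to 11389, 8051 to 11074 and 9459 to 12944 probe sets in the same order, and 6 to 12, 9 to 12 and 8 to 11 of the 15 chemokine and cytokine probe sets, where all arrays gave 8, 9 and 9. With the replicate block 10331, 10766 and 12169 probe sets were called, and again 8, 9 and 9 of the 15. Of the single probe sets' results under alternatives that keep all arrays of the groups compared, 365 kept their direction and side of the threshold, 10 passed it and 3 no longer did (Ccl7 in beta-catenin cells, Il6 in ICAT cells and Cxcl2 between the transfected lines, all with the trended and robust prior). With 1 array left out, 375 kept both, 13 passed, 12 no longer did, and 5 changed sign. These 5 concern the differences in ICAT cells of Cxcl1 1419209_at (−0.49 to 0.44 over the left-out arrays) and Cxcl1 1457644_s_at (−0.29 to 0.53), both negative without ICAT replicate 1, that of Cxcl12 1439084_at in beta-catenin cells (−0.0025 to 0.0608), negative without control replicate 3, and that of Il6 between beta-catenin and ICAT cells (−0.26 to 1.08), at −0.26 without ICAT replicate 2 and −0.15 without ICAT replicate 3. The cause was not tested. A fit that leaves out an array has 2 arrays in that group, and probe sets under log2 5 carry no sure order, which limits Il33, and Il6 and Cxcl2 in control cells.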

Other observations

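ICAT replicate 1 read more than 1 log2 unit above both other ICAT arrays in 85 probe sets, which name 66 genes, 6 of them among the chemokines and cytokines above. Of the named genes other than those 6, the 9 with the widest gap are given first, a choice made after the values were seen. Lcn2, a neutrophil-associated siderophore-binding protein, read 11.36 on ICAT replicate 1 against 5.75 and 5.03 on the other ICAT arrays. Saa3, an acute-phase protein, read 12.11 against 7.66 and 7.60, and Hp, which encodes haptoglobin, 8.82 against 6.64 and 6.57. Cxcl3, a neutrophil chemokine, read 8.10 against 4.01 and 4.53. Rasl11a read 9.14 against 6.67 and 6.92, and Aldh3a1, an aldehyde dehydrogenase gene, 6.68 against 4.81 and 4.64. The metalloreductase gene Steap4 read 11.24 against 9.39 and 8.96, and the guanylate-binding protein genes Gbp3 and Gbp6 9.34 against 7.48 and 7.40, and 7.76 against 5.56 and 5.78. Csf3 and Csf2, colony-stimulating factor genes picked from further down because they encode cytokines, read 8.47 against 6.92 and 6.75, and 7.44 against 6.06 and 6.05.

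The chemokines lie in clusters, whose neighbours were read from the order of genes in the RefSeq table. On chromosome 5 the order is Cxcl5, Ppbp, Pf4, Cxcl3, Cxcl15, Cxcl1, Cxcl2, Mthfd2l, Epgn and Ereg. Of the chemokines between Cxcl5 and Cxcl1, Ppbp, with mean log2 expression of 4.32 in beta-catenin, 4.40 in ICAT and 4.36 in control cells, and Cxcl15, with 4.66, 4.68 and 4.72, lay under log2 5 in every group. Pf4 averaged 5.75, 5.87 and 5.71 in the same order and was not called against control. Cxcl3 averaged 3.92, 5.54 and 4.11, with 8.10 on ICAT replicate 1 against 4.01 and 4.53 on the other ICAT arrays. Ereg, the epiregulin gene at the far end, differed by −2.56 from control in beta-catenin cells (adjusted p = 1.36e-08) and by −0.69 in ICAT cells. Mthfd2l, next to Cxcl2, differed by −1.01 in beta-catenin cells (adjusted p = 1.86e-06) and by −0.69 in ICAT cells.

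On chromosome 11, Ccl2 and Ccl7 are followed by Ccl11 and Ccl12, whose means lay between 4.16 and 4.34 in all groups, and by Ccl8, whose difference of 0.41 in beta-catenin cells was not called (adjusted p = 0.224). Next to Cxcl12 on chromosome 6, Zfp637 differed by 0.64 in beta-catenin cells (adjusted p = 4.82e-05) and Tmem72 by −0.05 (adjusted p = 0.695). Depp1, beyond Tmem72, differed by 0.81 in beta-catenin cells (adjusted p = 2.26e-05) and by 0.34 in ICAT cells (adjusted p = 0.0152). Rassf4, Zfp239 and Hnrnpf, also near Cxcl12, were called in neither line.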
